A study of Mus musculus with 6 samples.

Results

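Small noncoding RNAs of the 7SK, 7SL and Y families, the telomerase RNA and 4 proteins that bind such RNAs were followed in haematopoietic stem cells. The members were chosen by gene symbol: Rn7sk, Rn7s1, Rn7s2, Rny1, Rny3, Terc, Larp7, Hexim1, Ssb and Srp54a. These 10 symbols matched 11 of the 55471 gene IDs in the deposited table, because Terc is listed under 2 IDs. The sort took Lin- Kit+ Sca1+ CD48- CD150+ cells of mice labelled with the genotype ETV6-RUNX1, a fusion of transcription factors found in childhood B-lineage leukaemia. Of the 6 total RNA libraries, 3 were from uninduced mice and 3 from mice given doxycycline in food for 2 weeks, which induces the fusion. Both groups carry the inducible fusion, and no library from mice given doxycycline without it was analysed here, so induction and doxycycline cannot be told apart. The age of the mice, the promoter that drives the fusion and whether each library came from 1 mouse or a pool are not given in the sources used here. If libraries of a group were not separate mice, the p-values measure only the spread between these samples.

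7SK RNA binds HEXIM proteins, and the complex holds the kinase P-TEFb (CDK9 with a cyclin T) inactive, which limits the release of paused RNA polymerase II. LARP7 binds the 3′ end of 7SK and stabilises it. 7SL is the RNA scaffold of the signal recognition particle, in which the GTPase SRP54 recognises signal peptides and delivers ribosomes to the endoplasmic reticulum. Y RNAs are bound by the Ro60 protein. The La protein, encoded by Ssb, binds the U-rich 3′ ends of new RNA polymerase III transcripts, a class that includes 7SK, 7SL and the Y RNAs. Terc, the template RNA of telomerase, is made by RNA polymerase II.

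The RNA sequences are shown because their likeness bears on how reads can be assigned. They are the GENCODE M21 transcripts on GRCm38, the build that the submitters' processing notes name. Rny1 (chr6:47788069-47788180, minus strand) and Rny3 (chr6:47781624-47781725, plus strand) are single annotated transcripts of 112 and 102 bases. They share 72.8% of aligned bases, and capitals mark the terminal run of 4 T in each, the kind of end that La binds.
Rny1: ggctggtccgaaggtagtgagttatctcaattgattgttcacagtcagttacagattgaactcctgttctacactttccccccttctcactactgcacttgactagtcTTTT
Rny3: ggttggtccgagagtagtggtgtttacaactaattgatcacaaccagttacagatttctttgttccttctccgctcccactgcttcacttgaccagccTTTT

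Rn7sk (chr9:78175303-78175633, minus strand) is annotated as 331 bases. Its first 100 bases are shown, with capitals on the 3 GATC motifs of the whole RNA, the first starting at base 13 and the last ending at base 67. The RNA ends in 3 T. GATC motifs of this 5′ part belong to the hairpin known to bind HEXIM1.
Rn7sk: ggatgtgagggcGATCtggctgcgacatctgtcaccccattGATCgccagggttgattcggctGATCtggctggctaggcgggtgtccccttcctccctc

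Rn7s1 and Rn7s2 are the 7SL genes, and their annotated transcripts differ at 0 positions. Reads within them match both genes equally, and how the deposited values divide them is uncertain.

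Terc (chr3:96414437-96414859, minus strand) is annotated as 423 bases under the ID ENSMUSG00000064796. The first 100 bases are shown, with capitals on CTAACC, part of the template that telomerase copies into telomeric repeats.
Terc: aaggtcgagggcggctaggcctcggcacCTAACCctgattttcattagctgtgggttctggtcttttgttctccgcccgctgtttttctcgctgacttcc
The other ID, ENSMUSG00000118406, is not in this annotation. The table gives it a GC content of 66.75%, which equals that of the 397 bases of the RefSeq Terc model (chr3:96414437-96414833), while the table's 67.14% for ENSMUSG00000064796 equals that of the 423 bases. Both IDs are therefore shown separately and summed.

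Values were TPM, a share of each library corrected for gene length, so the depth of each library is unknown. All 11 IDs had a mean of at least 1 TPM and were tested with limma among 13470 genes, although 1 Terc ID reached that mean through 1 induced library. Of the stem cell markers, 11 of 11 were measured above the minimum, with a summed level of 566 to 735 TPM in uninduced and 627 to 691 TPM in induced libraries. Of the B cell and the T cell markers, 5 of 6 each were listed at 0 in all 6 libraries. The 9 erythroid markers summed to 54.6 to 60.6 TPM in uninduced and 402 to 467 TPM in induced libraries. None of the 9 was at 0 throughout, 6 of the 8 tested were higher, and their part in the results below was not tested. The 8 myeloid markers summed to 156 to 162 and 114 to 145 TPM, and the 5 megakaryocyte markers to 81.7 to 114 and 105 to 114 TPM. Single markers within these sums went opposite ways. Of the megakaryocyte markers, Ppbp (log2 change 3.22, limma adjusted p 0.00343) and Pf4 (1.13, limma adjusted p 0.0253) rose and Gp9 fell (-2.33, limma adjusted p 0.0187). Ppbp was at 0.876, 0 and 0 TPM in uninduced libraries and passed the minimum mean through the induced ones, so the size of its change depends on the pseudocount. Of the myeloid markers, Prtn3 rose (1.12, limma adjusted p 0.0114). Of the stem cell markers, 3 rose and 2 fell. The part of these markers in the results was not tested either. In bulk samples, fewer cells of a type and less RNA per cell cannot be told apart.

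The 7 small RNA IDs together held 4.76%, 5.17% and 4.32% of the TPM in the uninduced libraries and 5.53%, 5.05% and 5.73% in the induced libraries. The means were 4.75% ± 0.427 (SD, n = 3) and 5.44% ± 0.349 (SD, n = 3), the groups overlapped, and the exact two-sided permutation p was 0.2. With 3 libraries against 3 this test cannot go below 0.1. Adjusted over 9 shares, no p was below 0.225. The members made up 94.7% to 95.9% of the TPM of the misc_RNA class, the annotation class of 562 genes to which most of them belong. Rn7sk alone made up 78.9% to 82.9% of their sum.

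Composition moved under these shares. The summed share of genes annotated as microRNA type was 22.8% ± 6.31 (SD, n = 3) without doxycycline and 36.7% ± 3.94 (SD, n = 3) with it, without overlap. Most of this difference lay in 1 gene, Gm23935, at 3.197%, 7.54% and 17.2% without doxycycline and 19.9%, 28.0% and 19.6% with it. Gm47301, another large gene of this type, was at 12.6% ± 2.79 and 13.2% ± 1.04 (SD, n = 3 each), with overlap. As a share of the TPM outside microRNA-type genes, the small RNA members were at 5.93%, 6.35% and 6.17% in the uninduced and 8.51%, 8.58% and 8.66% in the induced libraries. On that denominator all 3 induced libraries lay above all 3 uninduced libraries, with an exact permutation p of 0.1 and an adjusted p of 0.15 over 9 shares.

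**Figure D1:**
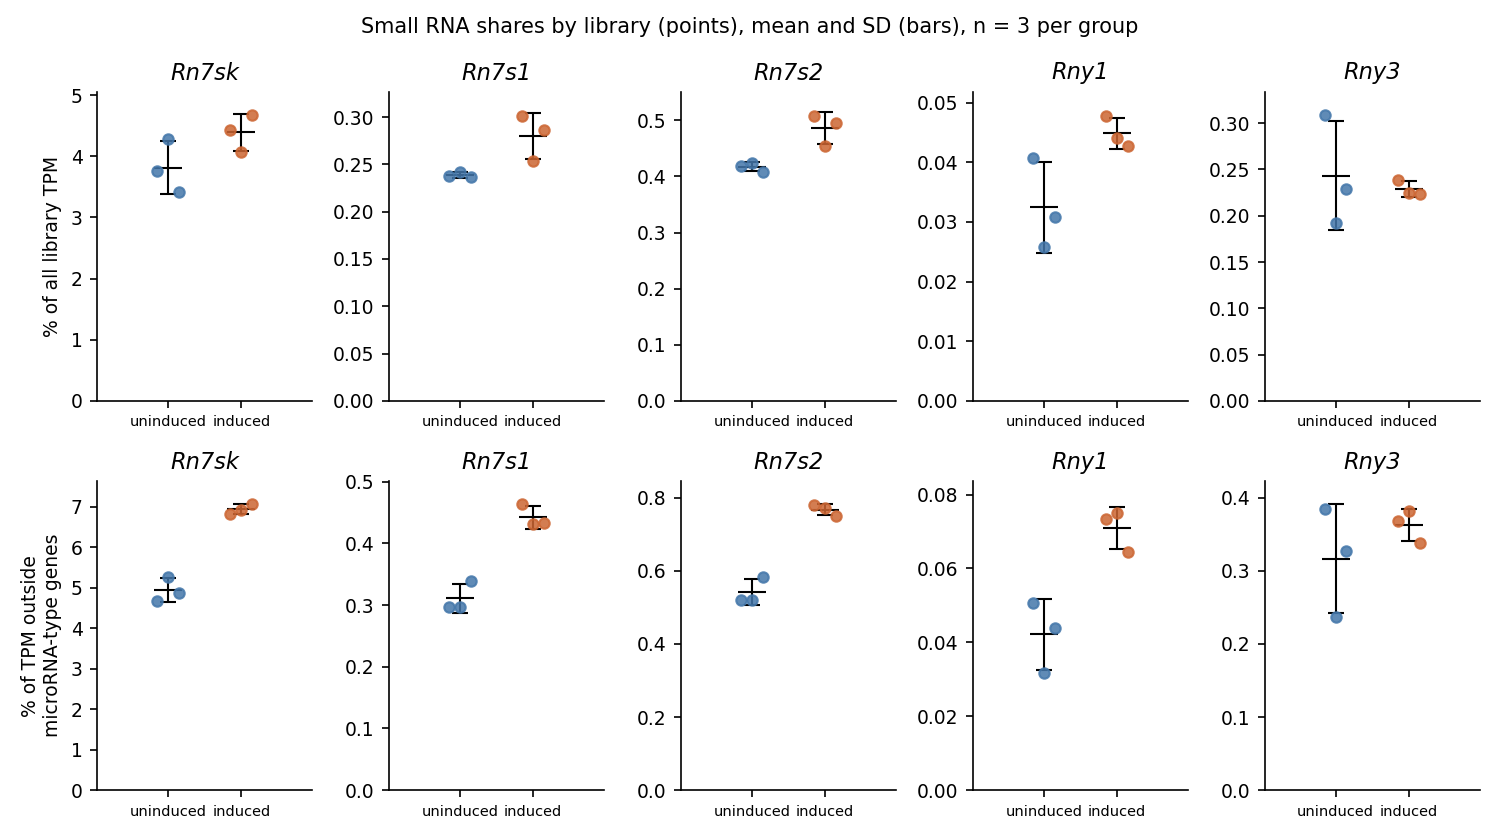
Share of library TPM (top row, percent) and share of the TPM outside microRNA-type genes (bottom row, percent) for 5 small RNA genes. Points are libraries, bars the mean and SD of 3 libraries, blue uninduced and orange induced. Rn7sk overlaps between groups in the top row and does not in the bottom row, where it is 4.68% to 5.26% against 6.82% to 7.07%.

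Rn7sk (ENSMUSG00000065037), the 7SK RNA, measured 37524, 42836 and 34110 TPM without doxycycline and 44333, 40719 and 46770 TPM with it. It ranked sixth or seventh of all genes in each library. The groups overlapped, since uninduced replicate 2 lay above induced replicate 2. The log2 change was 0.21 (SE 0.13, 95% interval -0.086 to 0.50, limma adjusted p 0.340). It was 0.13 to 0.29 with a library omitted, lowest without uninduced replicate 3, and passed in none of these 6 fits. The median log2 change of all 13470 tested genes was -0.35 on this scale, so the sign of a change depends on the reference. After median-of-ratios scaling, which brings that median to 0.0032, Rn7sk rose by a log2 change of 0.62 (SE 0.061; adjusted p 0.00119, limma).

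The 7SL genes were read next. Rn7s1 (ENSMUSG00000099021) measured 2378, 2420 and 2366 TPM without doxycycline and 3012, 2536 and 2860 TPM with it. Rn7s2 (ENSMUSG00000099250) was at 4180, 4243 and 4085 TPM and at 5075, 4537 and 4960 TPM, respectively. In each gene all induced libraries lay above all uninduced ones, with uninduced values close together and induced replicate 2 the lowest of its group. The log2 changes were 0.23 (SE 0.12; adjusted p 0.245, limma) and 0.22 (SE 0.11; adjusted p 0.239, limma). After median-of-ratios scaling they were 0.64 and 0.63, with limma adjusted p of 0.00627 and 0.00429. As 1 quantity, 7SL took up 0.656% ± 0.0106 (SD, n = 3) of TPM without doxycycline and 0.766% ± 0.0526 (SD, n = 3) with it (exact permutation p 0.1, adjusted p 0.225). The ratio of Rn7s2 to Rn7s1 was 1.69 to 1.79 in the 6 libraries although their annotated sequences are identical.

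The Y RNAs were compared one by one. Rny1 (ENSMUSG00000065701) measured 407, 258 and 308 TPM without doxycycline and 477, 441 and 427 TPM with it, with no overlap. Its log2 change was 0.49 (SE 0.17; adjusted p 0.0998, limma) and, after median-of-ratios scaling, 0.90 (SE 0.18; adjusted p 0.0239, limma). Without uninduced replicate 1, the highest of its group, Rny1 passed on the deposited scale (0.67, limma adjusted p 0.0408). It did not pass when any other library was left out (limma adjusted p 0.172 to 0.254), and without uninduced replicate 2 its log2 change was 0.34. Rny3 (ENSMUSG00000064945) measured 3086, 1927 and 2291 TPM without doxycycline and 2390, 2246 and 2239 TPM with it, where the induced values lay inside the uninduced range. Its log2 change was -0.060 (SE 0.17; adjusted p 0.849, limma), and 0.35 after median-of-ratios scaling (limma adjusted p 0.281).

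Both Y RNAs were highest in uninduced replicate 1 and lowest in uninduced replicate 2 within the uninduced group, so their ratio varied much less than either level. Rny3 was 7.59, 7.47 and 7.45 times Rny1 in the uninduced and 5.01, 5.09 and 5.25 times Rny1 in the induced libraries. The mean ratio was 7.501 ± 0.0746 (SD, n = 3) against 5.12 ± 0.120 (SD, n = 3). A ratio within a library does not depend on scaling. Its exact permutation p was 0.1, the smallest possible, and 0.2 after adjustment over 8 ratios. A ratio does not say which of its members differed.

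Rn7sk was also set against other abundant RNAs within each library. Its ratio to the 7SL sum overlapped between groups, at 5.81 ± 0.576 and 5.74 ± 0.250 (SD, n = 3 each, exact permutation p 1.0). Its ratios to Rny1 (123.1 ± 38.4 and 98.3 ± 9.80) and to Rny3 (16.4 ± 5.21 and 19.2 ± 1.49) also overlapped (SD, n = 3 each, exact permutation p 0.4 for both). Its ratio to Rpph1, the ribonuclease P RNA, was 0.547, 0.512 and 0.532 in uninduced and 0.791, 0.803 and 0.763 in induced libraries. Its ratio to Rmrp, the RNA of RNase MRP, was 4.48, 5.19 and 4.51 against 5.81, 5.91 and 5.95. Neither of these ratios overlapped between the groups, and each had an exact permutation p of 0.1 (adjusted p 0.2).

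**Figure D2:**
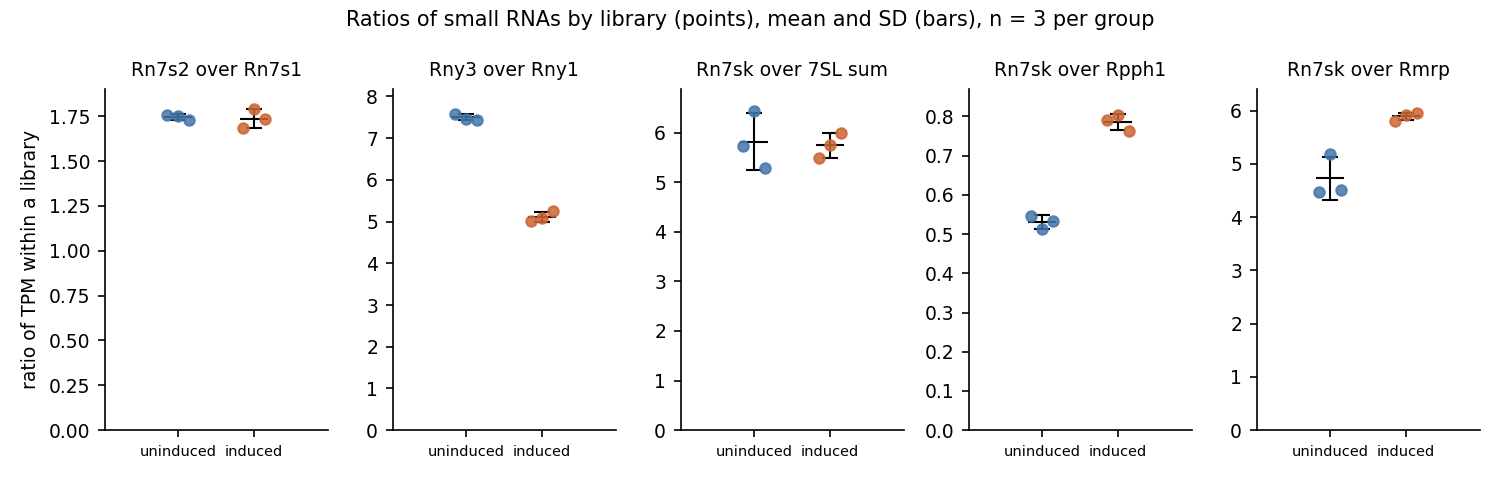
Ratios of TPM within a library for 5 pairs of small RNAs. Points are libraries and bars the mean and SD of 3 libraries per group. Rny3 over Rny1 lies at 7.45 to 7.59 in uninduced and 5.01 to 5.25 in induced libraries, whereas Rn7s2 over Rn7s1 overlaps at 1.69 to 1.79.

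Terc was low and divided between its IDs. ENSMUSG00000064796 measured 15.2, 10.1 and 2.65 TPM without doxycycline and 10.9, 7.66 and 0.00545 TPM with it. ENSMUSG00000118406 was listed at 0 in 5 libraries and at 6.73 TPM in induced replicate 3, the library in which the other ID was near 0. The log2 change of ENSMUSG00000064796 was -0.89 (SE 0.87; adjusted p 0.545, limma), and 0.22 without induced replicate 3. ENSMUSG00000118406 passed the minimum mean through that 1 library alone, so its fitted change is not read. Summed over both IDs, Terc was at 9.33 ± 6.33 (SD, n = 3) and 8.44 ± 2.20 TPM (SD, n = 3), with a log2 change of 0.093 (SE 0.50; adjusted p 0.925, limma). The groups overlapped in each form.

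All 4 protein genes lay below the 7SK, 7SL and Y RNAs and, in their means, above Terc. Ssb (ENSMUSG00000068882; chr2:69861562-69871846), which encodes La, measured 116, 126 and 103 TPM without doxycycline and 68.0, 85.7 and 74.8 TPM with it, and the groups did not overlap. It fell by 0.59 on the log2 scale (SE 0.17; adjusted p 0.0492, limma). The call lay at the threshold. It was lost when any 1 of the 6 libraries was left out (limma adjusted p 0.0524 to 0.156) and with the replicate block (0.105). With a library omitted the log2 change was -0.68 to -0.51. After median-of-ratios scaling the log2 change was -0.19 (limma adjusted p 0.527), and the groups overlapped at 96.9 to 99.0 and 76.6 to 103.9 scaled TPM.

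Larp7 (ENSMUSG00000027968; chr3:127536714-127553349), the 7SK-binding protein, measured 51.4, 44.7 and 30.6 TPM without doxycycline and 26.2, 27.8 and 30.3 TPM with it. The groups did not overlap, although uninduced replicate 3 and induced replicate 3 were close. The log2 change was -0.54 (SE 0.23; adjusted p 0.158, limma). Its unadjusted p was 0.0407. After median-of-ratios scaling the log2 change was -0.14 (limma adjusted p 0.722) and the groups overlapped, at 28.9 to 42.8 scaled TPM without doxycycline and 29.5 to 33.7 with it. There were 934 ± 193 Rn7sk TPM per Larp7 TPM in uninduced and 1565 ± 115 in induced libraries (SD, n = 3 each, exact permutation p 0.1, adjusted p 0.2), without overlap.

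Hexim1 (ENSMUSG00000048878; chr11:103116231-103119725), the P-TEFb inhibitor, measured 8.57, 17.1 and 12.0 TPM without doxycycline and 10.7, 11.6 and 13.1 TPM with it. Its log2 change was -0.038 (SE 0.29, 95% interval -0.69 to 0.62, limma adjusted p 0.949), so a change of either sign was within the interval. Srp54a (ENSMUSG00000073079; chr12:55080262-55115367) was at 15.9, 27.4 and 22.3 TPM and at 29.9, 14.9 and 30.5 TPM, with overlap and a limma adjusted p of 0.784. Of the windows of 100 bases in its longest protein-coding transcript, 72.1% also occur in transcripts of its neighbours Srp54b or Srp54c, so the division of reads between these genes is uncertain. Srp54b was at 6.62 ± 3.74 and 4.09 ± 0.729 TPM, and Srp54c at 5.19 ± 1.13 and 3.88 ± 0.668 TPM (SD, n = 3 each).

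**Figure D3:**
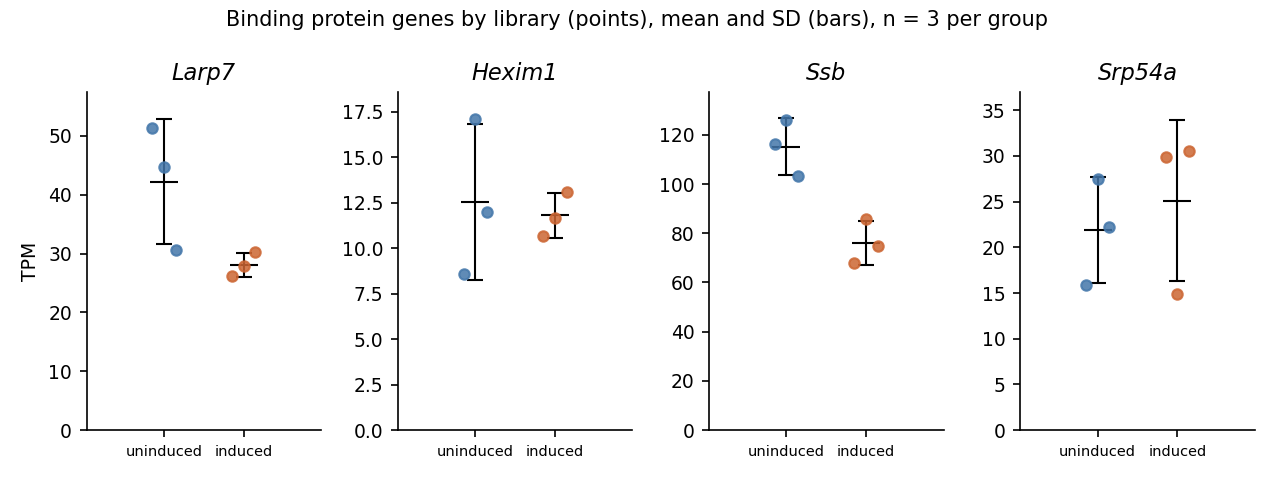
TPM of the 4 protein genes by library. Points are libraries and bars the mean and SD of 3 libraries, blue uninduced and orange induced. Ssb (103 to 126 against 68.0 to 85.7 TPM) and Larp7 (30.6 to 51.4 against 26.2 to 30.3 TPM) do not overlap between groups, and Hexim1 and Srp54a do.

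Ssb and Larp7 were the protein members whose groups did not overlap on the deposited scale, where 28.2% of all genes were lower without overlap. The 250 bases before their annotated RefSeq starts on GRCm38.p6 are shown. Larp7 (chr3:127553350-127553599, minus strand) and Ssb (chr2:69861312-69861561, plus strand) carry capitals at matches, on either strand, to the motifs named after them.
Larp7: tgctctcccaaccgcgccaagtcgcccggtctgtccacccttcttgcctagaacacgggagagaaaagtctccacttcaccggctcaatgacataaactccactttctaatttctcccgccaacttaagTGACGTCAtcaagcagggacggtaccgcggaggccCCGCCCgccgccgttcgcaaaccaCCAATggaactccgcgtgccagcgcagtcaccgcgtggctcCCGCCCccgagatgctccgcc
Ssb: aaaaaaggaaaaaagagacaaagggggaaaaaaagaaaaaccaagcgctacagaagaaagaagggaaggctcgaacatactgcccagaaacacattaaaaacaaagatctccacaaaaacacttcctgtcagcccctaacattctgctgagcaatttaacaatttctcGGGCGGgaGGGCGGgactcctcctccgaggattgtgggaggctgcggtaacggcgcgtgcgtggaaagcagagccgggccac
GGGCGG occurred at 2 places in each, and in 32.7% of 32851 such windows. TGACGTCA, the cyclic AMP response element, was found once in the Larp7 window and in 1.55% of all windows. The same window held CCAAT, as did 33.9% of all windows. The Ssb window held neither. TATATA was in neither window and in 5.25% of all. A match describes letters, and binding was not measured.

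In order of TPM in uninduced libraries, the members ran Rn7sk, Rn7s2, Rny3, Rn7s1, Rny1, Ssb, Larp7, Srp54a, Hexim1 and Terc. Rny3 and Rn7s1 overlapped there (1927 to 3086 and 2366 to 2420 TPM), as did Srp54a with Hexim1 and Hexim1 with Terc. In induced libraries Rn7s1 lay above Rny3 in all 3 (2536 to 3012 against 2239 to 2390 TPM), and Larp7 and Srp54a overlapped.

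Over the members, 1 of 11 IDs passed an adjusted p of 0.05 on the deposited scale, in the lower direction, beside 11.5% of all tested genes (10.2% lower and 1.29% higher). At an unadjusted p under 0.05 there were 3, Rny1, Larp7 and Ssb, beside 27.9% of all tested genes. Groups did not overlap for 3 IDs that were higher in induced cells and 2 that were lower, beside 4.83% and 28.2% of all genes (33.1% in either direction). After median-of-ratios scaling 4 IDs passed, Rn7sk, Rn7s1, Rn7s2 and Rny1, all higher, beside 2.88% of genes called higher, 3.1% called lower and 5.98% in either direction. The same 4 passed as higher after rescaling to nuclear protein-coding genes (3.01% of genes called higher, 2.84% lower, 5.85% in all) and to the TPM outside microRNA-type genes (2.27% higher, 4.82% lower, 7.09% in all), the latter chosen after seeing the data. Ssb passed on none of these 3 scales. Rn7s1 and Rn7s2 have identical annotated sequences, so these counts include them as separate IDs although they are not separate measurements.

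**Figure D4:**
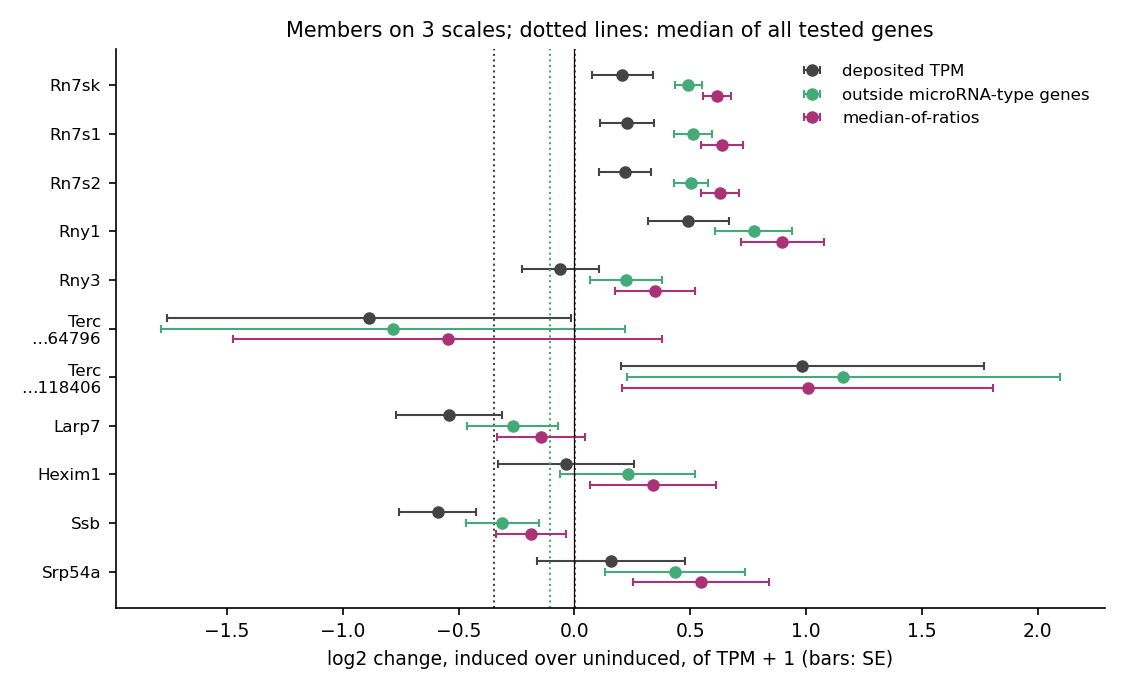
Log2 change (induced over uninduced, of TPM + 1) of each member ID on 3 scales, with SE as bars. Dotted lines are the median of all 13470 tested genes on the deposited scale (-0.35), after median-of-ratios scaling (0.0032) and of the 13288 genes outside the microRNA type (-0.11). Rn7sk, Rn7s1, Rn7s2 and Rny1 lie right of the median on each scale, and Ssb moves from -0.59 to -0.19.

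Other genes of the misc_RNA class with a mean of at least 1 TPM were compared with the members by sequence. Of 27 such genes, 5 were most like Rn7sk at 80.4% to 85.7% identity, and 4 were most like 7SL at 80.7% to 91.5%. The 7SK-like genes reached 2.95% to 3.89% of the Rn7sk level in a library, and the 7SL-like genes 5.06% to 8.07% of the 7SL sum. Gm24447, the highest 7SK-like gene, averaged 1205 ± 101 and 1333 ± 74.2 TPM (SD, n = 3 each), which on the log2 scale was 0.15 with an adjusted p of 0.474 by limma. After median-of-ratios scaling its log2 change was 0.56 (limma adjusted p 0.0150), beside 0.62 for Rn7sk. The 7SL-like gene Rn7s6 also passed on that scale (0.69, limma adjusted p 0.0473), and the other 7 copies did not. No Y RNA or Terc copy reached 80% identity.

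Over the 6 libraries, the genes whose log2(TPM + 1) followed Rn7sk most closely were Klhl3 (Pearson r 0.997), Itga6 (0.993), Tor4a (0.986), Isg15 (0.986) and Ptprj (0.980). Among the members, r was 0.83 for Rn7s2, 0.77 for Rn7s1, 0.34 for Rny1, -0.37 for Rny3, 0.58 for Srp54a, 0.36 for Hexim1, -0.25 for Larp7 and -0.55 for Ssb. For Terc it was -0.25 under ENSMUSG00000064796 and 0.58 under ENSMUSG00000118406. The 6 points share group and composition, and the values are a description.

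Genes of the same pathways were read from 12 lists, with 111 IDs tested. The lists hold the members Terc, Ssb, Larp7, Hexim1 and Srp54a, and 1 of them holds other short RNA genes. Of the 111 IDs, 1 was higher and 22 were lower, or 20.7% called beside 11.5% of all tested genes. The lists were chosen with earlier results of these data known, which limits this comparison. Their median log2 change was -0.49, against -0.35 for all genes. After median-of-ratios scaling 6 were higher and 6 lower, beside 2.88% and 3.1% of all tested genes. The medians were then -0.13 for the list genes and 0.0032 for all genes. Of the 6 that were higher, 4 were short RNA genes (Rnu11, Rnu12, Vaultrc5 and Rmrp), and the others were Mllt3 and Brf1.

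In the 7SK complex itself, 0 of 7 genes passed with limma (1 at an unadjusted p under 0.05), and 0 passed after median-of-ratios scaling. Cdk9, the P-TEFb kinase, was at 39.9 ± 6.26 and 39.2 ± 6.18 TPM, and Mepce, which caps 7SK, at 25.9 ± 1.73 and 19.9 ± 2.64 TPM (SD, n = 3 each). The median log2 change of this list was -0.18, and 0.20 after median-of-ratios scaling. Of 6 genes for hnRNP and helicase proteins known to bind 7SK, 6 fell, beside 10.2% of all tested genes called lower. Their median log2 change was -1.01 (-0.61 after median-of-ratios scaling). Ddx21, a helicase, fell from a mean of 67.9 ± 3.92 TPM to one of 25.2 ± 4.55 TPM (SD, n = 3 each), which on the log2 scale was -1.41 with an adjusted p of 0.00366 by limma. Hnrnpa1 fell from a mean of 312 ± 52.9 TPM to one of 155 ± 16.7 TPM (SD, n = 3 each), with an adjusted p of 0.00684 by limma. Syncrip (-1.09), Dhx9 (-1.02), Hnrnpa2b1 (-0.93) and Hnrnpr (-0.71) also fell, with limma adjusted p of 0.0155, 0.0187, 0.00551 and 0.0467. After median-of-ratios scaling 3 of the 6 remained called lower, Ddx21, Hnrnpa1 and Hnrnpa2b1, beside 3.1% of all tested genes.

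Of 15 tested genes of pause release and elongation, 1 rose and 2 fell, with a median of -0.40 (-0.026 after median-of-ratios scaling). Mllt3, a reader of acetylated chromatin in the super elongation complex, rose from a mean of 44.6 ± 6.71 TPM to one of 100.5 ± 5.32 TPM (SD, n = 3 each), which on the log2 scale was 1.16 with an adjusted p of 0.00482 by limma, and also after median-of-ratios scaling (1.57). Polr2a and Mllt1 fell by 0.85 and 1.02 on the log2 scale (limma adjusted p 0.0286 and 0.0390), and neither passed after median-of-ratios scaling.

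Of the 8 signal recognition particle genes, 0 passed with limma (2 at an unadjusted p under 0.05), with a median of -0.39 (-0.018 after median-of-ratios scaling). Srp72, which binds 7SL, averaged 42.9 ± 4.50 and 27.2 ± 3.11 TPM (SD, n = 3 each), which on the log2 scale was -0.64 with an adjusted p of 0.0646 by limma. Its groups did not overlap, and after that scaling its log2 change was -0.24 (limma adjusted p 0.518). Of 2 tested genes of the particle's receptor, Srpr and Srprb, 0 passed with limma (2 at an unadjusted p under 0.05), with a median of -0.72 (-0.36 after that scaling). Of 8 tested Ro, La and LARP genes, 4 fell, with a median of -0.64 (-0.24 after that scaling). Beside Ssb these were Puf60, a splicing factor (-0.69, limma adjusted p 0.0291), Larp1 (-0.94, limma adjusted p 0.0227) and Larp4 (-0.96, limma adjusted p 0.0393), which bind mRNAs. After median-of-ratios scaling 0 of the 8 passed. Ro60, the Y RNA-binding protein, was at 2.23 to 3.51 TPM in uninduced and 1.82 to 3.14 TPM in induced libraries.

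Of the 10 tested IDs of the telomerase list, which includes Terc, 5 protein genes fell, and the list median was -1.14 (-0.78 after that scaling). Dkc1, the pseudouridine synthase dyskerin of H/ACA RNAs, measured 82.7, 97.0 and 48.8 TPM without doxycycline and 20.9, 21.6 and 27.0 TPM with it (log2 change -1.63, SE 0.26, limma adjusted p 0.00562). Its H/ACA partners Gar1 (-1.63), Nhp2 (-1.52) and Nop10 (-1.21) also fell, with limma adjusted p of 0.00874, 0.00432 and 0.0139. Tert, the reverse transcriptase, fell from a mean of 5.40 ± 1.73 TPM to one of 1.35 ± 0.544 TPM (SD, n = 3 each), which on the log2 scale was -1.43 with an adjusted p of 0.0467 by limma. After median-of-ratios scaling Dkc1, Gar1 and Nhp2 passed, and Nop10 (limma adjusted p 0.0554) and Tert (0.134) did not.

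Of 13 RNA polymerase III subunit genes, 2 fell, Polr3a (-0.96, limma adjusted p 0.0456) and Polr1c (-0.84, limma adjusted p 0.0431). The list median was -0.70 (-0.31 after median-of-ratios scaling), with 12 of 13 changes below 0 on the deposited scale. Most changes over the whole table were below 0 on that scale too, with 27.5% of all tested genes above 0 and 10.2% called lower. Of its 19 transcription factor genes, Gtf3c5 fell (14.2 ± 2.44 to 6.56 ± 0.454 TPM, mean ± SD over 3 libraries each; adjusted p 0.0400, limma). The factor list had a median of -0.58 (-0.22 after that scaling), with 16 of 19 below 0 on the deposited scale. After that scaling Polr3a, Polr1c and Gtf3c5 did not pass, with limma adjusted p of 0.190, 0.263 and 0.152. Brf1, a subunit of TFIIIB that serves 7SL-type internal promoters, averaged 31.4 ± 4.99 and 44.5 ± 7.57 TPM (SD, n = 3 each), which on the log2 scale was 0.49 with an adjusted p of 0.173 by limma. It passed as higher after median-of-ratios scaling (0.88, limma adjusted p 0.0227). Maf1, a repressor of RNA polymerase III, overlapped between groups (limma adjusted p 0.812).

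**Figure D5:**
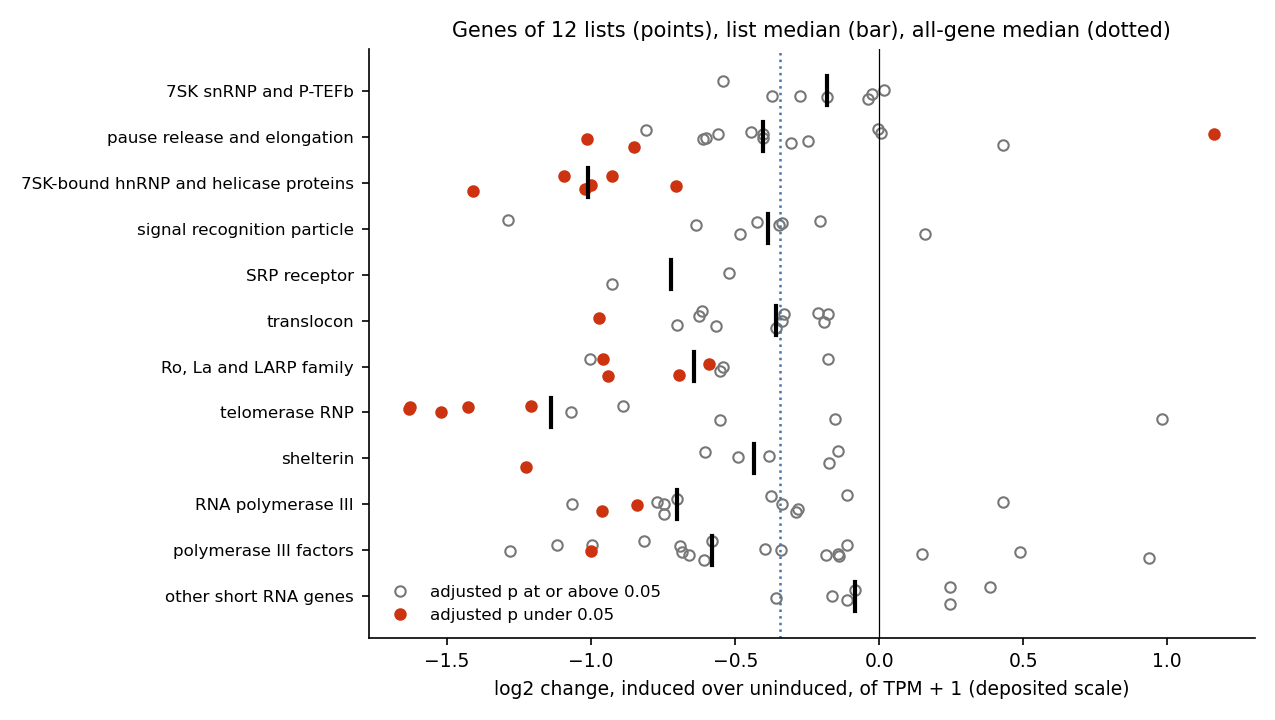
Log2 change (deposited scale) of the tested genes of 12 lists. Filled points have a limma adjusted p under 0.05, bars are list medians and the dotted line is the median of all tested genes, -0.35. All 6 hnRNP and helicase genes and 5 telomerase genes are filled on the left, and Mllt3 is the filled point on the right.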

How the data were processed

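Libraries of total RNA from sorted stem cells were made with a stranded pico-input kit, per the labels' protocols. The authors deposited TPM values with 1 column per library, and each gene's GC content as percent, per the file headers. The submitters' processing notes name HISAT2, StringTie, DESeq2 and the build GRCm38, without versions. Annotation release and read filters are not given in the sources used here. Each column summed to 999976 to 999993 TPM over all 60496 rows, and rows were summed per gene ID. TPM keeps no depth, so no counting interval can be given.

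The fit used limma 3.58.1 (R 4.3.3) with log2(TPM + 1) as response (empirical Bayes with a variance trend, two-sided, Benjamini-Hochberg over all 13470 genes averaging 1 TPM or more, threshold 0.05). This scale understates changes of low genes. Shares and ratios were tested with exact two-sided permutation tests (scipy 1.17.1). Groups came from library titles. Named are all members, list genes past the threshold without overlap (up to 5 per list, and more where a list has 8 genes or fewer) and the 5 genes most like Rn7sk. Gm24447, Rn7s6, Gm23935, Gm47301, single cell type markers and the values of other list genes that did not pass, were chosen after their values were seen. Members and lists were chosen with earlier results of these data known. On simulated data of 13470 genes, 92% of genes changed by 2 log2 units and 28% of those changed by 1 were recovered, and 11 of 131 calls were false. That simulation had 200 changed genes, none among the low genes and balanced in sign. Its errors were independent and it had no shift in composition, so these rates cannot be carried over to the calls above. Sequence identity was computed with edlib from GENCODE M21 transcripts. The alternatives tried were other pseudocounts, filters and scalings, the highest row per ID, a fit blocked by replicate number, and the omission of single libraries.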

Additional observations from a re-analysis of the deposited data

How the results depend on the processing

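TPM without depth, 3 libraries per group and the choice of scale limit these results. The 1549 genes called (174 higher, 1375 lower) became 806 (388 and 418) with median-of-ratios scaling, 788 (405 and 383) after rescaling to nuclear protein-coding genes, 942 (302 and 640) outside microRNA-type genes, a scale chosen after seeing the data, and 752 (96 and 656) without the filter. Leaving out each library gave 573 to 1198 (69 to 128 higher, 494 to 1070 lower). The 1 member called, lower, became 4, all higher with 0 lower and with both 7SL genes counted, on each of these 3 scales. It became 0 without the filter and with a pseudocount of 5 (Ssb -0.57, limma adjusted p 0.0501), and 0 to 1 with a library omitted, with 0 to 1 higher and 0 lower. The 23 list genes called became 12, 13 and 12 on the 3 scales, 11 without the filter and 7 to 15 with a library omitted.

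With the replicate block, 902 genes passed, 782 of them lower, with 0 members (Ssb -0.59, limma adjusted p 0.105) and 12 list genes. Same-numbered libraries had deviations from the group means that correlated at 0.0215, -0.0152 and 0.0172. These values do not settle whether same-numbered libraries were prepared together.

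The sign of 4 members' changes depended on the setting, none of them past the threshold. Rny3 became 0.35 (median-of-ratios), 0.38 (protein-coding) and 0.22 (outside microRNA-type genes), and Hexim1 0.34, 0.39 and 0.23. When a library was left out, Rny3 ranged from -0.22 to 0.12, Hexim1 from -0.26 to 0.20, Srp54a from -0.045 to 0.48 and Terc ENSMUSG00000064796 from -1.56 to 0.22. Without induced replicate 3, Terc was 0.22 and Srp54a -0.010. Without uninduced replicate 1, Srp54a was -0.045 and Rny3 0.12, without induced replicate 1 Hexim1 was 0.026, and without uninduced replicate 2 it was 0.20. Terc was 0.093 with both IDs summed, also chosen after seeing the data. The difference in the Rny3 share, -0.0143 percentage points, became 0.0464 outside microRNA-type genes and 0.0183 without uninduced replicate 1 (range -0.0397 to 0.0183). The cause was not tested beyond the scales named. The difference in the summed share, 0.687 percentage points, ranged from 0.471 to 0.897 with a library omitted. As shares outside ribosomal RNA and mitochondrially encoded genes, Rn7s1 and Rny1 overlapped between groups. With a minimum mean of 5 TPM, Terc ENSMUSG00000118406 had no value.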

Other observations

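Other short noncoding RNA genes were read from a list of 8 names, of which 7 IDs were tested. On the deposited scale 0 passed with limma (2 at an unadjusted p under 0.05). After median-of-ratios scaling 4 were higher. Rnu11, an RNA of the minor spliceosome, measured 1224, 943 and 1008 TPM without doxycycline and 1433, 1356 and 1333 TPM with it, without overlap (log2 change 0.38, limma adjusted p 0.0944; 0.79 and 0.0122 after that scaling). Rnu12, its partner, had a log2 change of 0.65 after that scaling (limma adjusted p 0.0412), and Vaultrc5, a vault RNA, one of 0.65 (limma adjusted p 0.0139). The more abundant of 2 Rmrp IDs averaged 8044 ± 440 and 7443 ± 511 TPM (SD, n = 3 each), with a log2 change of 0.30 after that scaling (limma adjusted p 0.0429). Rpph1 averaged 72090 ± 10258 and 56007 ± 5269 TPM (SD, n = 3 each), without overlap (limma adjusted p 0.135), and at 0.050 after that scaling (limma adjusted p 0.743). The translocon and shelterin lists each had 1 gene that fell on the deposited scale, Tram1 (-0.97, limma adjusted p 0.0191) and Tinf2 (-1.23, limma adjusted p 0.0230), and 0 after median-of-ratios scaling.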
